A study of Mus musculus with 20 samples.

Results

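Cell pools enriched for Trpv1 neurons, sorted from mouse dorsal root ganglia (DRG), were examined for 9 receptor genes of itch-sensing and nonpeptidergic nociceptors. These are the Mas-related receptors Mrgprd, Mrgpra3, Mrgprb4, Mrgprb5 and Mrgprx1, the histamine receptor Hrh1, the lysophosphatidic acid receptor Lpar3, and the cytokine receptor subunits Il31ra and Osmr. They were chosen by name for their role, with earlier results of these data known, and found by Ensembl identifier among 37620 listed genes. RNA was measured by RNA-seq in neurons from lumbar ganglia (L4-5), which mainly supply the hind limb, and from sacral ganglia (L6-S1), which also supply the pelvic organs. There were 20 libraries from 5 male and 5 female donors, with one lumbar and one sacral library per donor. All donors were homozygous Trpv1tm2Bbm adults of 6 to 8 weeks, so that each of the 4 groups (male lumbar, female lumbar, male sacral, female sacral) carried the same reporter allele. In this allele the Trpv1 locus drives an alkaline phosphatase and a nuclear beta-galactosidase, and cells were sorted by a fluorescent product of that enzyme. Only the brightest positive cells were kept. The paper calls the result enriched for Trpv1 and expects some Trpv1 neurons to be missing, so receptor levels are those of these pools. A donor's label holds 2 animal numbers, while the methods speak of single mice, and pooling is not mentioned there.

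Unmyelinated nociceptors of the DRG fall into peptidergic cells, which release neuropeptides, and nonpeptidergic cells, which depend on the receptor tyrosine kinase Ret. In the mouse, Mrgprd marks the major nonpeptidergic class that supplies the skin, Mrgpra3 and Mrgprx1 mark neurons that respond to chloroquine and to the peptide BAM8-22 in itch, and another class that makes the peptides Nppb and Sst carries Il31ra and Osmr. IL-31 acts through a dimer of Il31ra and Osmr that signals by Jak1, whereas the Mas-related, histamine and lysophosphatidic acid receptors act through G-proteins.

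Mrgprb4 and Mrgprb5 are shown by sequence because they are close relatives whose values differed in behaviour between the levels. Their RefSeq promoter windows (build GRCm38.p6), from 250 bases before to 50 after the annotated start, aligned over 300 bases with no gap. They were identical at 82% of these bases. In both windows the 50 bases after this start open with ATG, the letters of a start codon. The annotated start may thus be that of the coding sequence, so the windows may not hold the promoters. Capitals mark the 54 positions at which the windows differ. By the same alignment Mrgprx1 and Mrgprb5 shared 49.2% of 321 aligned columns. The Mrgprb4 window is chr7:48199129-48199428 and the Mrgprb5 window is chr7:48168936-48169235, both on the minus strand and printed 5′ to 3′.
Mrgprb4: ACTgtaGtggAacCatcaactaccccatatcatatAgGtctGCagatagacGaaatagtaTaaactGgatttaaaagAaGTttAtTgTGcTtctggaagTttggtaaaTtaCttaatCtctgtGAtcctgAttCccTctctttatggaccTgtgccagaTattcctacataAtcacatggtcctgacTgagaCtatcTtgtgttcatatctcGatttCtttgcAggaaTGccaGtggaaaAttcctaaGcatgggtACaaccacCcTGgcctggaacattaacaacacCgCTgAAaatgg
Mrgprb5: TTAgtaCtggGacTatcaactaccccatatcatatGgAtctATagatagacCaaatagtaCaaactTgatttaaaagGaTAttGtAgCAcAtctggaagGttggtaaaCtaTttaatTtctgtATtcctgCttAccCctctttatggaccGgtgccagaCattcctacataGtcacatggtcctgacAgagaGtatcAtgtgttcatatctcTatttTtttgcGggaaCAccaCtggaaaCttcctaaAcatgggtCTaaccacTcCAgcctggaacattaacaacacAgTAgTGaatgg
Promoter windows were at hand for 8 of the 9 genes, all except Mrgpra3. The core letters bound by RUNX factors, TGTGGT or TGCGGT on either strand, occurred in 2 of their 11 windows, both of Hrh1, which overlap and have one site in common, and in 22.4% of all 32851 windows of this length. The windows of Mrgprb4 and Mrgprb5 held neither. As their annotated start may be that of the coding sequence, this need not hold for their promoters.

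In the build of the deposited values, NCBIM37, the 5 Mas-related genes lie on chromosome 7. Mrgpra3 (ENSMUSG00000078698) spans 54844320 to 54856742, Mrgprx1 (ENSMUSG00000070552) 55276341 to 55282971, Mrgprb5 (ENSMUSG00000070551) 55423353 to 55424384 and Mrgprb4 (ENSMUSG00000070550) 55453583 to 55454548, all on the minus strand. Mrgprd (ENSMUSG00000051207) lies apart from this cluster on the plus strand, at 152500740 to 152509964. Hrh1 (ENSMUSG00000053004) spans 114347930 to 114433290 on chromosome 6, plus strand, and Lpar3 (ENSMUSG00000036832) 145883925 to 145949178 on chromosome 3, plus strand. Il31ra (ENSMUSG00000050377) spans 113313018 to 113370870 on chromosome 13 and Osmr (ENSMUSG00000022146) 6763577 to 6824313 on chromosome 15, both on the minus strand. No annotated gene overlaps any of the 9. Sequence shared with other loci can remove reads, because only uniquely mapped reads were counted. Of the exonic 32-base words of each gene, 27.3% in Mrgpra3, 26.6% in Mrgprx1, 12.4% in Mrgprb4 and 7.09% in Mrgprb5 occurred again on the assembled chromosomes, against at most 0.878% in the other 5. For Hrh1, 81.8% of the words occurred again on one unplaced sequence of the build. Whether the authors mapped against such sequences is not given in the sources used here, so the level of Hrh1 is uncertain.

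The values are log2 RPKM, that is reads scaled to gene length and library size on a log2 scale, with each library brought to one median by the authors. Between 43906566 and 66407317 reads per library were worked back from their whole-read steps. Differences are written as lumbar minus sacral on the log2 scale, so that a negative value is upregulation in sacral DRG, and were tested with limma over all genes with the donor as a random block. A gene was called at a Benjamini-Hochberg adjusted p of at most 0.05. Of 16304 genes tested, 45.6% were called, 30.3% higher in sacral and 15.3% higher in lumbar DRG. All 9 receptors passed the filter on low values, Hrh1 only through its sacral groups. Of the 9, 4 were called, all higher in sacral DRG (Mrgpra3, Mrgprb4, Hrh1, Osmr). This count of 4 of 9 is close to the share over all genes. The median difference of the 9 was -0.51, beside a median of -0.11 over all tested genes. Of the 180 values of the 9 genes in 20 libraries, 1 was empty, in Mrgprb4.

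**Figure D1:**
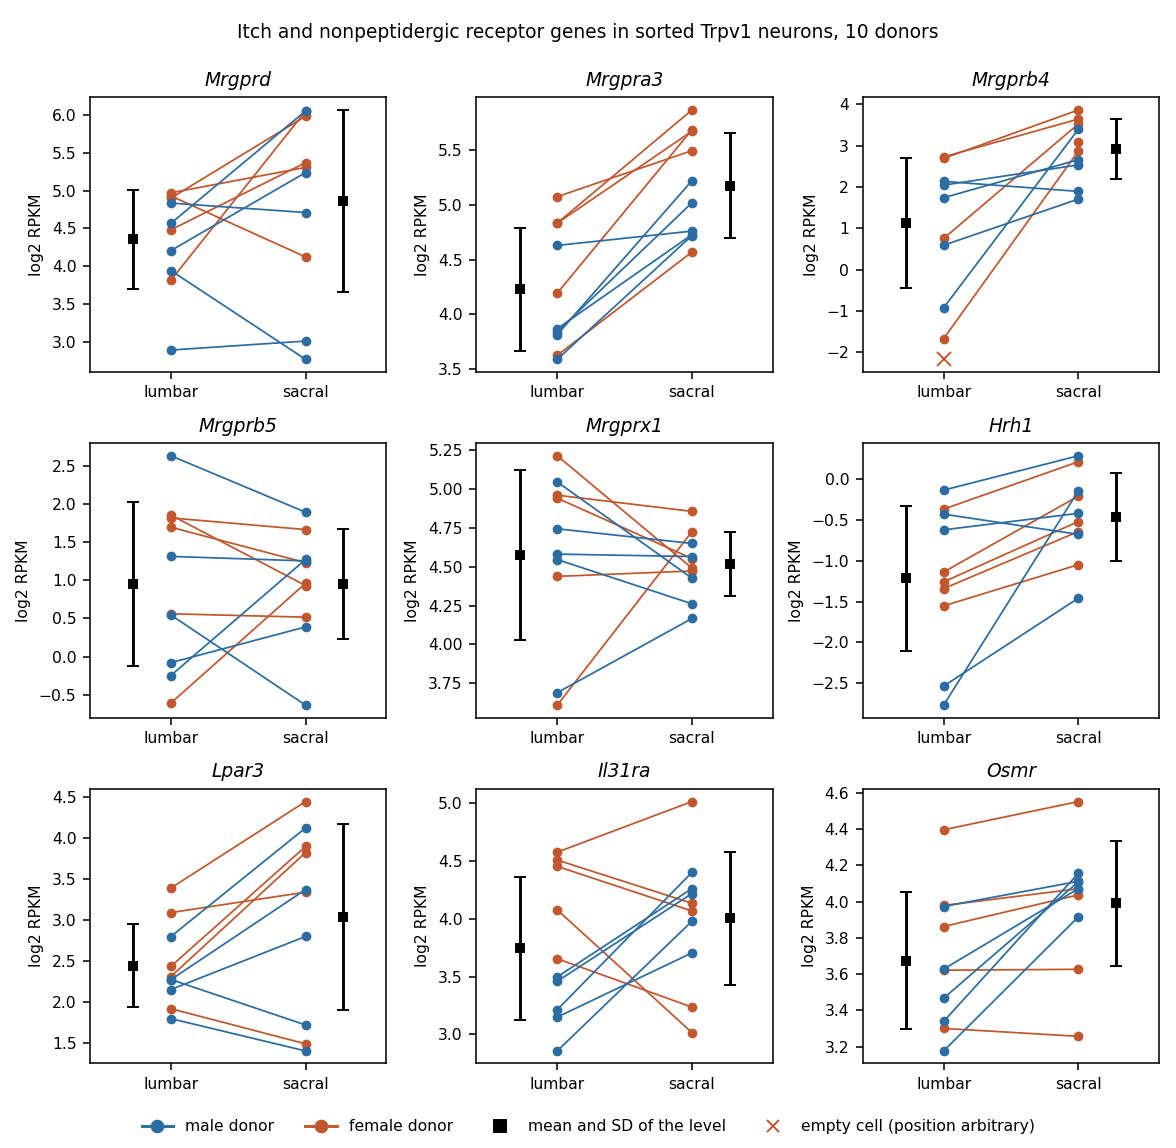
Level of each receptor in log2 RPKM (y axis) in lumbar and sacral libraries (x axis), with a line for each of the 10 donors, colour by sex, and black squares with bars for the mean and SD of each level. Mrgpra3 rises from lumbar to sacral in all 10 donors, whereas Mrgprb5 and Mrgprx1 rise in 3 of 10.

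Mrgpra3, the chloroquine receptor of itch neurons, was upregulated in sacral DRG in 10 of 10 donors by the deposited values. Its lumbar values were 4.63, 3.59, 3.82, 3.84 and 3.87 in male donors 1 to 5 and 5.08, 4.83, 4.19, 3.63 and 4.83 in female donors 1 to 5. The sacral values of the same donors were 4.76, 4.72, 5.22, 5.02 and 4.73 in males and 5.50, 5.87, 5.69, 4.57 and 5.67 in females. The groups overlapped, and 5 of the 10 sacral values lay above the highest lumbar value. The lumbar mean was 4.23 ± 0.56 (SD, n = 10) and the sacral mean 5.17 ± 0.48 (SD, n = 10). The log2 difference was -0.94 (SE 0.16, limma adjusted p = 9.97e-05), or 1.92-fold. It rested on 580 to 4450 reads per library. The call held in all 10 fits that left out a donor, in which the difference lay between -1.04 and -0.87. It was the only one of the 9 called both in males alone (-0.94, adjusted p = 0.00275) and in females alone (-0.95, adjusted p = 0.0173).

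Mrgprb4, a receptor of C-fibre neurons that respond to stroking of hairy skin, had the widest difference of the 9. In lumbar libraries it was 1.74, 0.59, 2.14, -0.92 and 2.05 in male donors 1 to 5, and 2.73, 0.75, -1.67 and 2.69 in female donors 1, 3, 4 and 5. The lumbar cell of female donor 2 was empty, which was 0 reads of 61739131, where its sacral library held 486. With the upper limit of 3 reads that a count of 0 allows, the sacral library of this donor was at least 182-fold higher in RPM (reads scaled to library size). Sacral values were 2.66, 1.71, 1.89, 3.40 and 2.53 in males and 3.64, 3.10, 3.53, 2.87 and 3.86 in females. Lumbar libraries were thus spread over a wide range, from 0 to 361 reads, whereas sacral libraries held 178 to 947. The lumbar mean was 1.12 ± 1.57 (SD, n = 9) and the sacral mean 2.92 ± 0.73 (SD, n = 10). The log2 difference was -1.80 (SE 0.45, adjusted p = 0.00277), from a fit that left out the empty cell, and 8 of the 9 complete pairs were higher in sacral DRG. It lay between -2.04 and -1.41 and stayed called when a donor was left out. In males alone it was not called.

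Mrgprb5, whose ligand and role are little described, did not follow its neighbour. It ranged from -0.61 to 2.63 with a median of 0.94 in lumbar libraries, and from -0.63 to 1.89 with a median of 1.10 in sacral libraries. The groups overlapped over nearly their whole ranges. The log2 difference was 0.00062 (SE 0.34, adjusted p = 0.999), and 2 SE on either side ran from -0.67 to 0.68. Read numbers were low, at 33 to 240 per library.

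Mrgprx1, the receptor of BAM8-22 in itch neurons, also did not differ beyond its spread. It ranged from 3.61 to 5.21 with a median of 4.66 in lumbar libraries, and from 4.17 to 4.86 with a median of 4.52 in sacral libraries. Sacral values lay within the range of the lumbar values. The log2 difference was 0.06 (SE 0.16, adjusted p = 0.778), with 2 SE from -0.25 to 0.37, and 7 of 10 donors were higher in lumbar DRG. Over 10 libraries the SD was 0.55 in lumbar and 0.21 in sacral DRG.

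Mrgprd, the beta-alanine receptor of nonpeptidergic neurons, had the largest SD of the 9 receptors within sacral DRG. Lumbar values were 4.83, 2.89, 3.94, 4.20 and 4.57 in male donors 1 to 5 and 4.97, 4.93, 3.81, 4.48 and 4.90 in female donors 1 to 5. Sacral values were 4.71, 3.01, 2.77, 5.24 and 6.05 in males and 5.31, 4.12, 6.05, 5.37 and 5.98 in females. Of the sacral libraries, 6 lay above the highest lumbar library, and male donors 2 and 3 were lowest. The lumbar mean was 4.35 ± 0.66 (SD, n = 10) and the sacral mean 4.86 ± 1.21 (SD, n = 10). The log2 difference of -0.51 (SE 0.33, adjusted p = 0.208) was not called, with 2 SE from -1.16 to 0.14, and 7 of 10 donors were higher in sacral DRG.

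Lpar3, a lysophosphatidic acid receptor found with Mrgprd in nonpeptidergic neurons, showed the same kind of spread. It ranged from 1.80 to 3.39 with a median of 2.29 in lumbar libraries and from 1.40 to 4.45 with a median of 3.36 in sacral libraries. The highest and the lowest value were both sacral. The log2 difference of -0.60 (SE 0.30, adjusted p = 0.112) was not called, with 7 of 10 donors higher in sacral DRG. It became a call with the donor as a fixed effect (adjusted p = 0.0339) and without female donor 2 (adjusted p = 0.0246).

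Hrh1, the histamine H1 receptor of itch, was the lowest of the 9, with 26 to 304 reads per library. It ranged from -2.77 to -0.13 with a median of -1.20 in lumbar libraries and from -1.46 to 0.29 with a median of -0.47 in sacral libraries. Male donors 1 and 2 had the lowest lumbar values, at -2.54 and -2.77. The log2 difference was -0.75 (SE 0.30, adjusted p = 0.0475), and 9 of 10 donors were higher in sacral DRG. Hrh1 passed the filter, a group mean above -1, only through the sacral groups, where it was higher. Its means were -1.30 and -1.13 in male and female lumbar DRG, and -0.48 and -0.44 in male and female sacral DRG. Without the filter on the mean Hrh1 was not called (adjusted p = 0.0505 by limma). The call in the main fit is close to the threshold. It was lost in 7 of the 10 fits that left out a donor (each female donor, and male donors 1 and 2, with adjusted p up to 0.142) and without the donor block (adjusted p = 0.0823).

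Osmr, the oncostatin M receptor subunit of the IL-31 receptor, had the smallest difference among the 4 called receptors. It ranged from 3.18 to 4.40 with a median of 3.62 in lumbar libraries and from 3.26 to 4.55 with a median of 4.07 in sacral libraries. The log2 difference was -0.32 (SE 0.13, adjusted p = 0.0456), and 9 of 10 donors were higher in sacral DRG. It was not called without female donors 1, 3 or 5 or male donors 2, 3, 4 or 5, which is 7 of 10 such fits, with adjusted p up to 0.101, and it was not called without the donor block (adjusted p = 0.0908). In the 5 males the difference was -0.56 ± 0.27 (SD, n = 5) and in the 5 females -0.08 ± 0.09 (SD, n = 5). The difference between the sexes in this effect was 0.48 (SE 0.25, unadjusted p = 0.0712 by limma) and was not called.

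Il31ra, the subunit that binds IL-31, was not called over both sexes (-0.26, SE 0.17, adjusted p = 0.218), but the sexes lay apart in the lumbar libraries. Lumbar values were 3.50, 2.86, 3.15, 3.46 and 3.21 in male donors 1 to 5, and 4.45, 4.58, 4.08, 3.65 and 4.51 in female donors 1 to 5. Each female lumbar value was above each male lumbar value. Sacral values were 4.26, 3.98, 3.71, 4.22 and 4.40 in males and 4.07, 5.01, 3.02, 3.24 and 4.13 in females, which overlapped. All 5 males were higher in sacral DRG, by 0.88 ± 0.27 (SD, n = 5) on the log2 scale, whereas 4 of 5 females were higher in lumbar DRG, by a mean of 0.36 ± 0.53 (SD, n = 5) over all 5. Female minus male in lumbar DRG was 1.02 (SE 0.26, unadjusted p = 0.000863 and adjusted p = 0.225 by limma). The difference of the level effects between the sexes was 1.24 (SE 0.34, unadjusted p = 0.00143 and adjusted p = 0.831 by limma). Neither passed the adjusted threshold. In males alone the level difference was called (adjusted p = 0.00194) and in females alone it was not (adjusted p = 0.372).

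**Figure D2:**
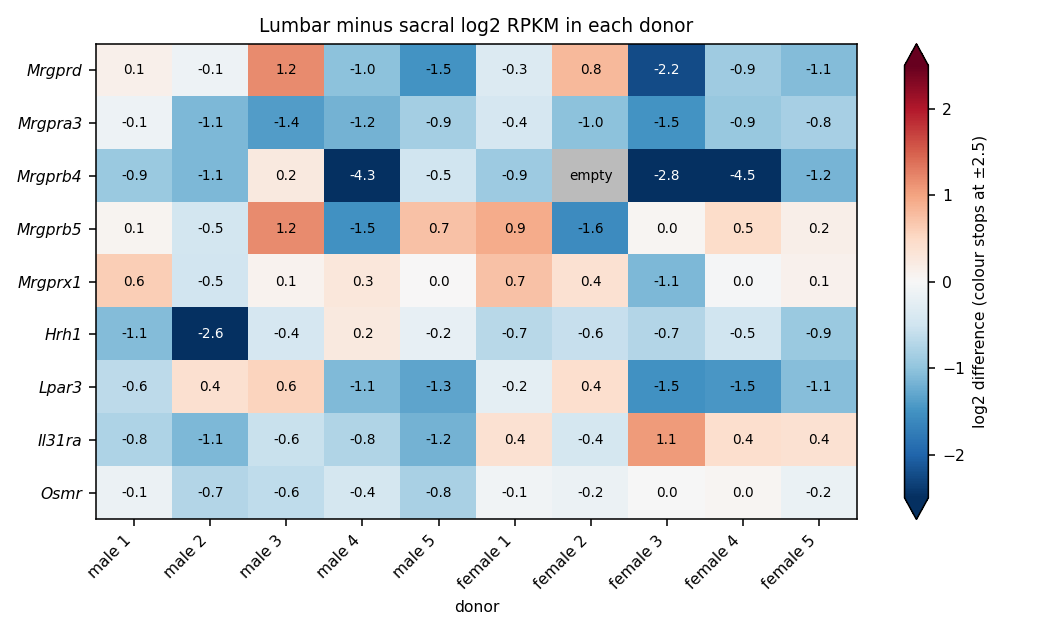
Lumbar minus sacral log2 RPKM of each receptor (rows) in each of the 10 donors (columns), blue where sacral is higher and red where lumbar is higher. Mrgpra3 is negative in all donors, Il31ra is negative in all 5 males and positive in 4 of 5 females, and the grey cell is the empty value of Mrgprb4.

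No receptor was called between the sexes. In sacral DRG 0.0368% of 16321 genes were called between females and males, in lumbar DRG 0.0427% of 16386 genes, and for sex by level 0% of 16304 genes. By limma, 0 of the 9 receptors were called in each of these, and at an unadjusted p under 0.05 there were 1, 2 and 1. Over all genes, 1320 of 16321, 1864 of 16386 and 668 of 16304 had an unadjusted p under 0.05 by limma. The same counts of 0 receptors were found by voom on worked-back reads. Besides Il31ra, this held for Mrgpra3, which was higher in females by 0.57 (SE 0.25, unadjusted p = 0.0333, adjusted p = 0.583) in sacral and by 0.56 (SE 0.25, unadjusted p = 0.0347, adjusted p = 0.409) in lumbar DRG.

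The calls moved with the scale on which the libraries were compared. Voom on worked-back reads with TMM factors, which brings the median difference of all genes to 0.0059, called Mrgpra3 (-0.82) and Mrgprb4 (-2.60) and no other receptor. It called 3538 genes higher in sacral out of 7022, where the deposited values gave 4947 out of 7436. Scaling to total reads moved the median difference of all genes to -0.43, gave 9505 of 10927 called genes higher in sacral, and called 7 receptors, all except Mrgprb5 and Mrgprx1. Those 2 turned from a positive to a negative difference on that scale (-0.38 and -0.27), still without a call.

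**Figure D3:**
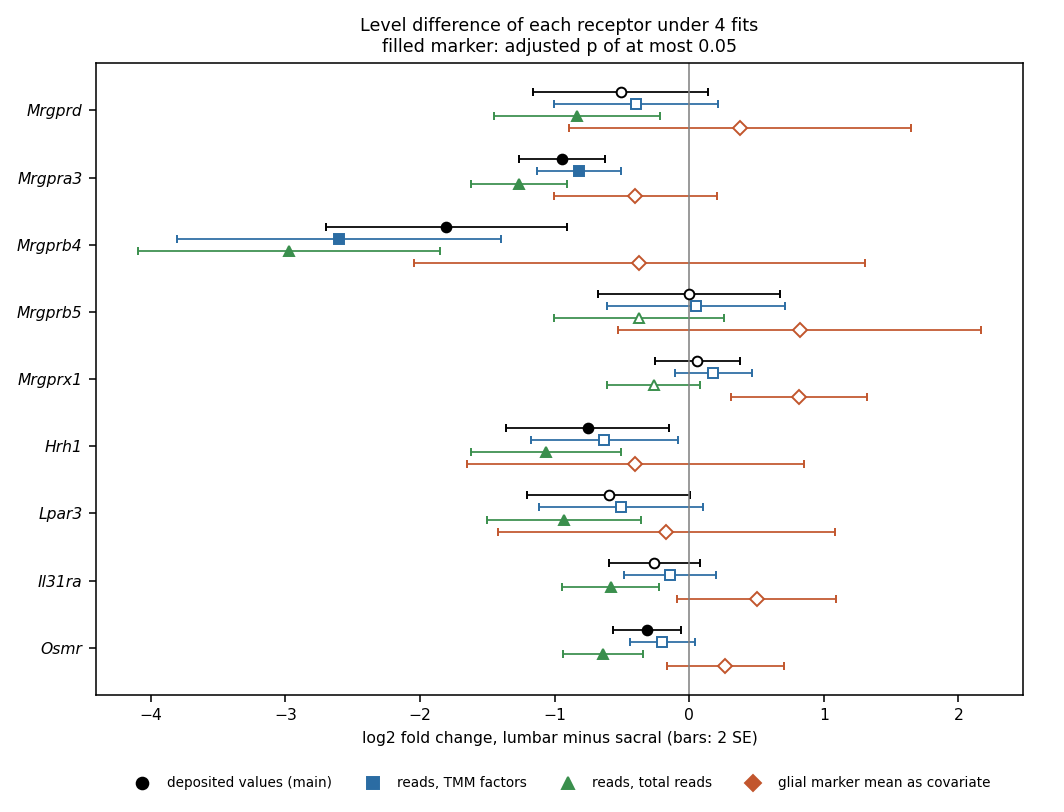
Log2 fold change, lumbar minus sacral (x axis), of each receptor (rows) under 4 fits, with bars of 2 SE and filled markers where the adjusted p is at most 0.05. Mrgpra3 and Mrgprb4 are filled in 3 fits, and no marker is filled with the glial covariate.

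The pairs of libraries were also tested one receptor at a time. By an exact two-sided permutation test over the 10 donors, on log2(RPM + 0.1) with the empty cell as 0, 6 receptors had p of at most 0.05. Here Mrgpra3, Mrgprb4, Hrh1 and Osmr were higher in sacral DRG in 10 of 10 donors, with the smallest p that 10 pairs allow (0.00195). By the same exact test Lpar3 (p = 0.00977) and Mrgprd (p = 0.0332) were higher in 8 of 10. Lpar3 kept an exact p of at most 0.05 in all 10 tests that left out a donor, whereas Mrgprd did so in 3 of 10 and lost it without male donor 2, 4 or 5 or female donor 1, 3, 4 or 5 (exact p of 0.0586 to 0.0664). These values are scaled to total reads. The exact test was run on the receptors alone, so the count of 6 has no share over all genes from this test. On the same scale voom called 10927 of 16335 genes, 9505 of them higher in sacral DRG. With TMM factors 3 receptors kept an exact p of at most 0.05, Mrgpra3 (0.00391), Mrgprb4 (0.00586) and Hrh1 (0.0137). On that scale Mrgpra3 and Mrgprb4 were higher in sacral DRG in 9 of 10 donors, Hrh1 in 8 and Osmr in 7. The reads of Osmr did not come out whole, so its values here are approximate.

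Markers of other cells of the ganglion also differed between the levels. Over all genes, 15.3% were called higher in lumbar and 30.3% higher in sacral DRG. Of 10 satellite glia and Schwann cell markers, 9 were called higher in lumbar DRG, with Sox10 (1.40), Fabp7 (1.38) and Kcnj10 (1.26) highest among those that changed in all 10 donors. Their summed level was 2040 to 4047 RPKM in lumbar and 1256 to 2119 RPKM in sacral libraries. None of the 10 was at 0 in any library. Of 8 endothelial markers 7, of 4 tested macrophage markers 2, and of 8 fibroblast and mural cell markers 5 were higher in lumbar DRG, and 1 fibroblast and mural marker was higher in sacral DRG. The summed endothelial level was 11.9 to 81.5 RPKM in lumbar and 9.47 to 42.0 RPKM in sacral libraries. Macrophage markers summed to 3.40 to 14.9 and 1.99 to 4.79 RPKM, and fibroblast and mural markers to 157 to 423 and 207 to 302 RPKM. With the mean of the glial markers as a covariate no receptor was called. Under this covariate the difference of Mrgpra3 was -0.40 (SE 0.30), that of Mrgprb4 -0.37, and those of Mrgprd (0.38), Il31ra (0.50) and Osmr (0.27) turned positive. The covariate itself differed by 0.95 on the log2 scale between the levels, higher in lumbar in 10 of 10 donors, so the covariate and the level cannot be told apart. In such sorted pools fewer cells of a class and less RNA per cell also cannot be told apart.

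Mast cells carry Mrgprb2. This gene had a value in 1 of 20 libraries, with 9 reads, and none of the 7 mast cell markers had a value in all 20. Their summed level was 0.0377 to 10.9 RPKM in lumbar and 0.0189 to 0.606 RPKM in sacral libraries.

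Trpv1, the channel whose locus carried the reporter and which opens downstream of Hrh1, was itself upregulated in sacral DRG, from 3.74 ± 0.41 to 4.70 ± 0.35 (SD, n = 10 each), a log2 difference of -0.96 (SE 0.15, adjusted p = 3.59e-05). Relative to Trpv1 in the same library, a scale chosen after seeing the data, no receptor was higher in sacral DRG by an exact permutation test over donors. On this scale a difference of 0 means that a receptor moved as Trpv1 did, and a gene at the median of all tested genes would stand at 0.85. Mrgpra3 differed by 0.02 ± 0.79 (SD, n = 10, exact p = 0.957) and Mrgprb4 by -0.73 ± 1.95 (SD, n = 9, exact p = 0.301). Mrgprx1 did not follow Trpv1, with 1.02 ± 0.87 (SD, n = 10, exact p = 0.0117). Osmr (0.64, exact p = 0.00781) and Il31ra (0.70, exact p = 0.0488) also differed from Trpv1, and both values lie below that of a gene at the median.

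Genes that act with the receptors were mostly higher in sacral DRG. Of 13 signalling partners tested among 15, 8 were called higher in sacral and 0 in lumbar DRG, with a median difference of -0.49. The shares over all genes were 30.3% and 15.3%. Besides Trpv1, those with the widest difference that changed in all 10 donors were Stat3 (-0.72, adjusted p = 9.01e-06) and Jak1 (-0.70, adjusted p = 4.98e-05), which carry the signal of IL-31. For both, exons of an antisense gene lie over their own, so their values are uncertain. Gnaq (-0.43, adjusted p = 0.00261) and Plcb3 (-0.55, adjusted p = 0.00183), the G-protein and phospholipase of histamine and Mas-related receptor signalling, and Trpa1, the channel downstream of Mrgpra3 (-0.56, adjusted p = 0.0229) were called higher in sacral DRG.

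Other itch receptors were called in both directions, as were all genes (30.3% higher in sacral and 15.3% higher in lumbar DRG). Of 20 tested among 24, 9 were called higher in sacral and 4 in lumbar DRG, with a median difference of -0.40. Il4ra, the shared subunit of the IL-4 and IL-13 receptors, was 0.90 higher in sacral DRG on the log2 scale (adjusted p = 5.43e-05). Lpar1 (0.89, adjusted p = 1.84e-05), a relative of Lpar3 also used by Schwann cells, and Tlr3 (0.81, adjusted p = 5.61e-05), a sensor of double-stranded RNA, were higher in lumbar DRG in 10 of 10 donors. Lpar5, another lysophosphatidic acid receptor, had a difference of -0.74 (SE 0.37, adjusted p = 0.101) and was not called. Il6st, the gp130 subunit that pairs with Osmr for oncostatin M, was called at -0.46 (adjusted p = 0.00168).

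Of 14 other Mas-related receptors, 4 were tested and 1, Mrgpre, was called higher in sacral DRG. Mrgpre was higher there in 8 of 10 donors, and exons of an antisense gene lie over its own, so its value is uncertain. Mrgpra1, a near relative of Mrgpra3, did not pass the filter, with 1 to 31 reads per library. Mrgprb3 had no value in any library. Of 6 itch peptides, 5 were tested, with 1 called in each direction and a median difference of 0.12. The peptides of the Il31ra neurons were not called, with Nppb at 0.16 (SE 0.20, adjusted p = 0.532) and Sst at 0.12 (SE 0.24, adjusted p = 0.705), each higher in lumbar DRG in 5 of 10 donors.

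Genes of both nociceptor classes were mostly higher in sacral DRG. Of 14 nonpeptidergic genes 9 were called higher in sacral and 0 in lumbar DRG, with a median of -0.57. Over all genes the shares were 30.3% and 15.3%. Scn11a (-1.19, adjusted p = 7.58e-06), a sodium channel of nociceptors, Ret (-0.96, adjusted p = 1.25e-05) and Acpp (-0.69, adjusted p = 0.000303), an ectonucleotidase, led those that changed in all 10 donors. Of 8 peptidergic genes 6 were called higher in sacral DRG, with a median of -0.69, led by the peptide Gal (-0.97), the receptor Kit (-0.87) and the peptide Adcyap1 (-0.86). The other 2, Calca (0.155) and Calcb (0.016), were not called, and were higher in lumbar DRG in 8 and 6 of 10 donors. Of 5 genes of C-fibre low-threshold mechanoreceptors (C-LTMR) and cold-sensing neurons, 4 were higher in sacral DRG, led by Th (-1.40), and 1 in lumbar DRG. Of 5 large myelinated neuron genes tested among 7, 1 was higher in lumbar DRG.

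**Figure D4:**
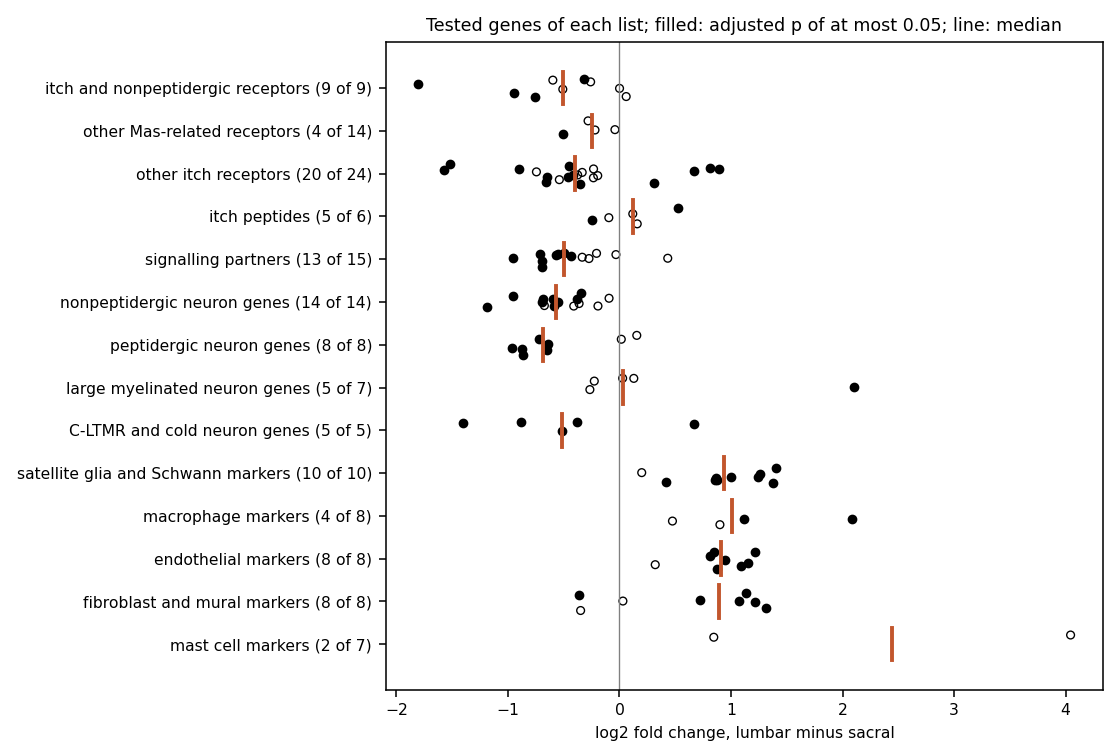
Log2 fold change, lumbar minus sacral (x axis), of the tested genes in each list (rows, with the number tested of the number listed), filled where the adjusted p is at most 0.05, with the median as an orange line. Receptors and most neuronal lists lie mostly to the left (sacral higher), and glial, macrophage, endothelial and fibroblast markers mostly to the right. The medians of the itch peptides (0.12) and the large myelinated neuron genes (0.03) also lie slightly to the right.

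The order of the receptors by length-scaled level was not corrected for sequence shared with other loci. Such sequence held 27.3% of the exonic words of Mrgpra3 and 26.6% of those of Mrgprx1. For Hrh1, 81.8% occurred again on an unplaced sequence. The effect of this on the order was not tested. By the deposited values over 20 libraries, the receptors stood in the following order. Mrgpra3 (4.70 ± 0.70, SD, n = 20, in log2 RPKM), Mrgprd (4.61 ± 0.98) and Mrgprx1 (4.55 ± 0.40) were highest over both levels, but their order was not the same in lumbar and sacral DRG. Mrgpra3 lay below Mrgprx1 in 9 of 10 lumbar libraries (means of 4.23 and 4.58) and above it in 10 of 10 sacral libraries (5.17 and 4.52). Mrgprd lay below Mrgprx1 in 8 of 10 lumbar libraries and above it in 7 of 10 sacral libraries. Mrgpra3 exceeded Mrgprd in 8 of 20 libraries, and these neighbours did not differ beyond their spread. Mrgprx1 exceeded Il31ra in 18 of 20. Il31ra (3.87 ± 0.60) and Osmr (3.83 ± 0.39), the partner subunits, lay at nearly one level, with Il31ra above Osmr in 11 of 20. Lpar3 (2.74 ± 0.91) followed, below Osmr in 17 of 20, then Mrgprb4 (2.07 ± 1.49, n = 19), Mrgprb5 (0.95 ± 0.89) and Hrh1 (-0.84 ± 0.82), with Mrgprb5 above Hrh1 in 18 of 20. Lpar3 exceeded Mrgprb4 in 9 of 9 lumbar libraries but in 5 of 10 sacral libraries.

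Some receptors varied together from library to library within their groups. Deviations from the 4 group means were compared for each of the 36 pairs of receptors, as a description over libraries that share donors and scaling. The median Pearson r was 0.28, and 8 pairs were above 0.5. Il31ra and Osmr had the highest r (0.85, Spearman 0.87, n = 20), and r was 0.86 without the 2 libraries farthest from the median of Il31ra. Mrgprd and Lpar3 followed (r = 0.83, Spearman 0.76, n = 20), at 0.79 without the 2 libraries farthest in Mrgprd. Within the levels, r was 0.79 in lumbar and 0.89 in sacral libraries for Il31ra with Osmr, and 0.55 and 0.93 for Mrgprd with Lpar3 (n = 10 each, both sexes together). Mrgpra3 and Osmr had r = 0.81 (Spearman 0.74), which was 0.66 without 2 libraries, and r was 0.89 in lumbar but 0.40 in sacral libraries. Mrgprd and Mrgpra3 had an r of 0.14 over the 4 groups, with 0.73 in lumbar and 0.14 in sacral libraries. Hrh1 had no r above 0.29 with any other receptor.

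**Figure D5:**
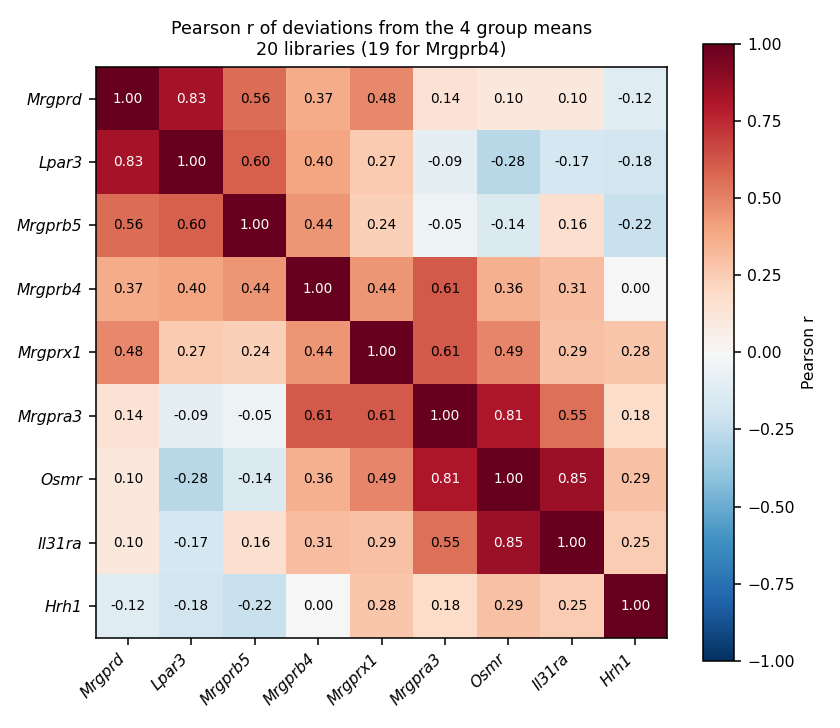
Pearson r between receptors (rows and columns) of the deviations from the 4 group means, over 20 libraries and over 19 for pairs with Mrgprb4. The high values fall at Mrgprd with Lpar3 (0.83) and at Osmr with Il31ra (0.85) and Mrgpra3 (0.81).

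Over 12795 genes with a value in all libraries and a mean log2 RPKM above 0, the nearest patterns to each receptor were sought by the same measure. Mrgprd was nearest to Rspo2 (r = 0.96), Grik1 (0.96) and Prkcq (0.95), of which Grik1, a kainate receptor subunit, and Prkcq, a protein kinase C, stand in the list of nonpeptidergic genes. Lpar3 was nearest to Gm765 (0.96), Ctxn3 (0.94) and Lhfpl1 (0.89). Il31ra was nearest to Htr1f (0.92), a serotonin receptor, Cysltr2 (0.88), a leukotriene receptor of itch, and Jak1 (0.88). Osmr was nearest to Jak1 (0.94), Npy2r (0.91) and Grina (0.90). Mrgpra3 was nearest to Atp6ap1 (0.88), Gnaz (0.86) and Cnst (0.86), and Mrgprx1 to Ugp2 (0.93), Bpnt1 (0.92) and Tubb2b (0.92). Mrgprb5 was nearest to Synpr (0.81), Txn1 (0.81) and Fxyd2 (0.79), and Hrh1 to Midn (0.80), Rpl18-ps1 (0.76) and Gm11703 (0.75). Mrgprb4 was left out here because of its empty cell.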

How the data were processed

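Pools enriched for Trpv1 neurons were sorted from L4-5 and L6-S1 DRG of 5 male and 5 female donors, and RNA was amplified and sequenced. Alignment by the authors was to mm9 with Subread, and featureCounts gave the number of uniquely mapped reads per Ensembl gene. The deposited values are log2 RPKM in one table of 20 columns, all mapped to samples by name, and every library has a median of 0.93. The step that makes these medians equal is not described in the methods. The deposited table has no added pseudocount and leaves 319449 cells empty. Genes were matched by identifier to the NCBIM37 annotation (37205 of 37620).

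Read numbers were worked back from the steps of low values, and 98.1% of 430293 values came out whole within 0.01 read, including those of 8 of the 9 receptors. Depth speaks to counting error alone.

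Level and sex were fitted in R 4.3.3 (limma 3.58.1, statmod 1.5.0) on genes with a group mean above -1, with 4 group means, a mean-variance trend and donor as a random block (correlation 0.17). Donor pairing comes from the animal numbers in the labels. Deviations from group means correlated by 0.18 on average between libraries of one donor (0.04 to 0.30 over 10 donors) and by -0.04 between donors. Empty cells were left missing. On simulated data the level fit found 96% of 100 genes changed by 1 and 98% of 100 changed by 2 on the log2 scale. These were among 16420 genes, and 7.18% of the calls were false. In that simulation all other genes were unchanged, all genes had one dispersion, and no shift in scaling between the levels was planted. In the real data 45.6% of genes were called and spreads differed between receptors, so these rates need not hold for the receptors. Exact permutation tests used scipy 1.17.1 in Python 3.11.15.

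The receptors and all gene lists were chosen with earlier results of these data known. Genes named are the 9 receptors, in each list up to 3 called genes with the widest difference among those that changed in all 10 donors, a few partners chosen for their role, and the 3 genes nearest to each receptor. Mrgpre, Mrgprb3, Calca and Calcb were named after their values were seen. Alternatives were filters, pseudocounts, quantile scaling, voom with TMM factors or total reads, other donor models, array weights, each sex alone, a glial covariate, an adjusted p of 0.01 and each donor left out.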

Additional observations from a re-analysis of the deposited data

Results flagged for a closer look

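Within groups of 5 libraries, the gap from the most extreme value to its neighbour was set against the range, which by chance stands out in about 1 of 20 groups. Of 36 groups, 2 stood out, both in Mrgpra3. The male lumbar library of donor 1 had a log2 RPKM of 4.63, where the next highest was 3.87, and the female sacral library of donor 4 had 4.57, where the next lowest was 5.50. Both donors were still higher in sacral DRG by the deposited values.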

How the results depend on the processing

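Mrgpra3 was called in 25 of 26 alternatives (differences of -1.27 to -0.40) and Mrgprb4 in 24 of 26 (-2.97 to -0.37). Hrh1 was called in 9 of 25, having failed the filter at a mean above 0, and Osmr in 11 of 26. The count of called receptors, 4, fell to 2 without the filter on the mean, with no replicate block, with TMM factors, at an adjusted p of 0.01 and in females alone, rose to 7 with total reads, and fell to 0 with the glial covariate, where Osmr reversed to 0.27. It ranged from 2 to 4 as donors were left out, and was 2 without female donors 1, 3 or 5 or male donor 2. With the replicate block as a fixed effect of donor it was 5. Over all genes, 7151 of 16180 were called with that block, 7564 of 19612 without the filter and 6577 of 16304 with no block. At an adjusted p of 0.01, 5104 of 16304 were called, and as donors were left out 6602 to 7458 genes. Whether the receptors moved apart from all genes was not tested. Calls over all genes fell from 7436 to 4591 in males alone (2934 higher in sacral), 3623 in females alone (2469) and 73 with the glial covariate (72), and those higher in sacral rose to 9505 with total reads. The causes were not tested. In pairs, 3 receptors in place of 6 had an exact p of at most 0.05 with TMM factors, and 5 to 6 as donors were left out. Mrgprd was lost in 7 of these 10, and Il31ra was gained without female donor 3, 4 or 5.

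Sex calls over all genes rested on few genes. In sacral DRG the 6 became 27 with array weights or a pseudocount of 1, 10 with empty cells at 0.5 reads, 13 with a pseudocount of 0.1, 36 with TMM factors, 24 with total reads, 3 at an adjusted p of 0.01, and 3 to 9 as donors were left out. In lumbar DRG the 7 became 4 with the glial covariate, without the variance trend and at 0.01, 2 without the filter, 12 with a pseudocount of 1, and 3 to 8 as donors were left out. No receptor was called by sex or by sex and level in any alternative. Depth was not tested as a limit. Mrgprd, at 921 to 13282 reads, had about the SE of Mrgprb5 (0.33 and 0.34), at 33 to 240 reads. Mrgpra3, at 580 to 4450 reads, and Mrgprx1, at 609 to 2309 reads, had smaller SEs of 0.16 each. The SE also holds the spread between donors, so these values do not measure the part of depth.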
